A study of Homo sapiens with 2 samples.

Results

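The genes described here are 9 members of the PI3K, AKT and mTOR pathway, chosen by name: PIK3CA, PIK3CB, PIK3R1, AKT1, AKT2, TSC1, MTOR, RPTOR and RICTOR. They are 9 of the 25105 genes with an input level in the deposited data, and their 73 peaks are among 49746 listed m6A peaks, stretches of RNA enriched for adenosine methylated at N6. The RNA came from untreated Huh-7 cells of wild-type genotype, a cell line established from human liver cancer. In 1 library (IP) fragments had been pulled down with an antibody to m6A, and 1 library (input) was made without the pull-down. The protocol text also mentions adipose RNA, whereas the titles and the cell line field name Huh-7.

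The input library held liver transcripts. All 11 hepatocyte and hepatoma markers stood at 1 FPKM (fragments scaled by transcript length and library size) or more, with a sum of 5482 FPKM. The 3 adipose markers summed to 0.0690 FPKM, with ADIPOQ and FABP4 not listed, and the 5 leukocyte markers summed to 0.965 FPKM. The sums were 1.33 FPKM for 4 endothelial markers, 4.02 FPKM for 4 fibroblast markers and 60.4 FPKM for 3 bile duct markers. There was 1 library of each kind, so no value below has a replicate check and no test between the libraries is possible. Folds and p-values of peaks are those the authors deposited, read here as IP over input, and the read depth of both libraries is unknown.

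Class I PI3K enzymes make the membrane lipid PIP3 after insulin or growth factor signals. PIP3 recruits the kinase AKT, which inhibits the TSC complex and so releases the kinase mTOR. In complex 1, with RPTOR, mTOR drives protein and lipid synthesis in response to insulin and amino acids. In complex 2, with RICTOR, it phosphorylates AKT itself. In the liver the pathway carries the insulin signal to glucose and lipid metabolism, and it is often activated in liver cancer.

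At the transcript start, 4 of the 9 genes (PIK3CA, PIK3CB, AKT2 and RPTOR) had a peak over part of the first 50 bases from a RefSeq start, beside 27.2% of coding genes at 1 FPKM or more with a RefSeq start. The stretches around these 4 starts are shown because antibodies to m6A also bind the methylated adenosine that can follow the cap of an mRNA. Each line gives 15 bases before the start in lower case and 15 bases from the start on in capitals, 5' to 3', from RefSeq on GRCh38.p14, with the gene's strand.
PIK3CA, chr3:179148342-179148371, plus strand: gaagtagaaagcggcAGTTCCGGTGCCGCC
PIK3CB, chr3:138834914-138834943, minus strand: gaggctggcgcgcgcGCACACGGGCGCGGG
AKT2, chr19:40285331-40285360, minus strand: ggcggggggggccgcGCCGTGCTAGCCGTT
RPTOR, chr17:80544823-80544852, plus strand: cgcggtgcattctggGTCCTGGCAATATGG
Of the 4, the PIK3CA start alone begins with A. Its start peak had the highest log2 fold of the 4 (2.68, adjusted p 0.00110), at the lowest input level of the 9 genes (2.22 FPKM). PIK3CB had 1.98 (adjusted p 1.51e-06), AKT2 1.56 (0.00770) and RPTOR 0.74 (1.29e-06). The PIK3CA peak begins at 179148164, before the RefSeq start at 179148357. That of PIK3CB begins 16 nt after the start, beyond the bases printed, runs over 64509 nt and overlaps a peak on the other strand. A link of first base and fold was not tested. An A as the first base was found at 46.0% of 12555 RefSeq starts of coding genes at 1 FPKM or more and at 4 of 15 starts of the 9 genes. A gene can start at several bases, and the base used in these cells was not measured.

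The m6A core motif GGAC was searched in the first 50 bases of each start on both strands. It was present on the transcribed strand at 5 of the 15 starts (33.3%), in MTOR, PIK3R1, TSC1 and both starts of AKT1, beside 19.8% of the starts of coding genes. On the other strand it was present at 4 of 15, beside 19.4%. None of the 4 starts with a peak over part of these 50 bases held GGAC on the transcribed strand in them. A match is a description of the letters and not a methylated site.

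All 9 genes were expressed at moderate levels. MTOR stood highest at 11.5 FPKM, above 75.6% of the other coding genes at 1 FPKM or more. AKT2 followed at 8.67 FPKM, RICTOR at 7.01, AKT1 at 6.36, RPTOR at 6.33, TSC1 at 5.83, PIK3CB at 5.45 and PIK3R1 at 4.25 FPKM. PIK3CA, the catalytic subunit p110 alpha, was the lowest at 2.22 FPKM, above 17.6% of other coding genes. The median of the 9 levels was 6.33 FPKM, beside 5.58 FPKM over 10547 coding genes at 1 FPKM or more. With a single input library, it was not tested which neighbours in this order differ.

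Every one of the 9 genes carried peaks, and most carried many. A listed peak was present in 9 of 9, beside 96.2% of coding genes at 1 FPKM or more and 97.6% of the 6116 coding genes between the lowest and the highest of the 9 levels. AKT2 had 13 peaks, AKT1 and RICTOR 11 each, TSC1 10, PIK3R1 8, PIK3CA 6, PIK3CB and RPTOR 5 each, and MTOR 4. The median was 8 peaks, beside 3 over coding genes at 1 FPKM or more and 4 over coding genes in the members' range of level. In that range 2.91% of genes had 11 peaks or more and 50.3% had 4 or more. Some neighbouring peaks were separated by a short gap: of 64 neighbouring pairs 6 lay 25 nt apart, and joining peaks at most 100 nt apart left 64 peaks, with 9 each in AKT1, AKT2 and TSC1. Joined in the same way, coding genes at 1 FPKM or more still had a median of 3, and the 9 genes of 8.

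**Figure D1:**
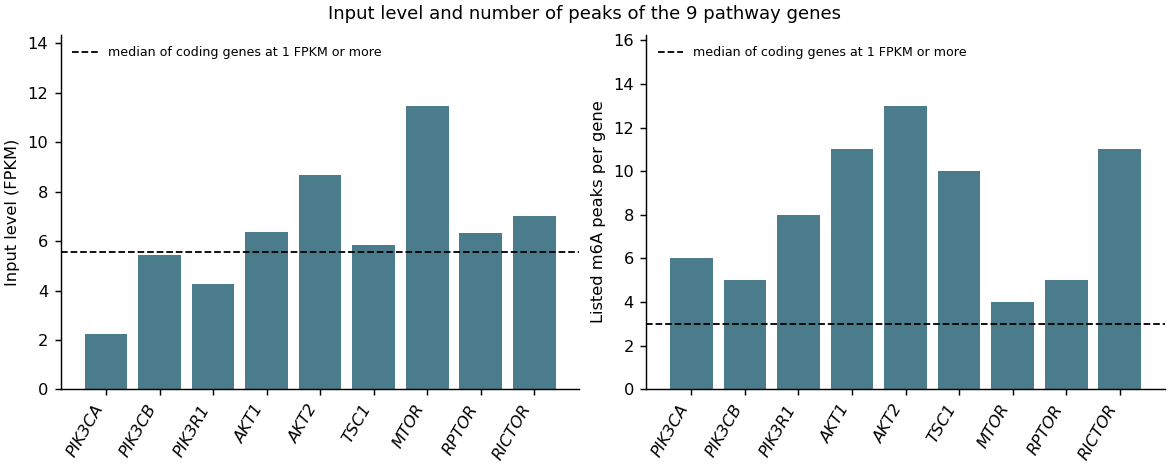
Input level in FPKM (left) and number of listed peaks (right) of the 9 genes, 1 bar per gene from the single input library and the single peak list. The dashed lines are the medians of coding genes at 1 FPKM or more (5.58 FPKM and 3 peaks): the levels lie on both sides of the line, and all 9 genes have more than 3 peaks.

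Longer genes among the 9 tended to have fewer peaks. AKT1 has the shortest genomic span (26403 nt) and 11 peaks, whereas RPTOR has the longest (421553 nt) and 5. Across the 9 genes the rank correlation of span with number of peaks was -0.79, beside 0.46 across 10150 coding genes with a peak. The rank correlation of input level with the strongest log2 fold was -0.77 across the 9, beside -0.33 across the coding genes. These are descriptions across genes of 1 pair of libraries, which share depth and the same peak calling.

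Every gene also had a peak of at least 2-fold with an adjusted p under 0.001. This count of 9 of 9 stands beside 67.5% of coding genes at 1 FPKM or more and 72.2% of those in the members' range of level. A peak of 4-fold or more was listed for 7 of 9, all but AKT2 and MTOR, beside 40.7% and 43.8%. The median log2 fold of the strongest peak was 2.84 over the 9 genes and 1.76 over coding genes at 1 FPKM or more with a peak. Over single peaks the median log2 fold was 0.92 for the 73 and 0.99 for the 39618 peaks of coding genes. Each gene had between 1 and 5 peaks of 2-fold or more, 29 in all (39.7%, beside 49.4% of the peaks of coding genes), among a larger number of weak ones.

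TSC1 had the strongest peak, with a log2 fold of 4.02, and MTOR the weakest maximum, with 1.10. Approximate 95% intervals for these log2 folds follow if each listed p is read as coming from a normal test of no enrichment. They cover at most the counting error within 1 IP and 1 input library, not variation between cultures, and each belongs to the highest of several peaks, so they test no order of the genes. They were 3.79 to 4.26 for TSC1, 3.50 to 4.15 for PIK3CA, 3.23 to 4.01 for RPTOR and 3.03 to 3.67 for PIK3R1. The intervals of TSC1, PIK3CA and RPTOR overlapped. For AKT1 the interval was 1.88 to 3.81, for PIK3CB 1.83 to 2.47 and for MTOR 0.83 to 1.38. Those of RICTOR (0.70 to 3.43) and AKT2 (0.51 to 2.62) were the widest with that of AKT1, and both overlapped that of MTOR.

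**Figure D2:**
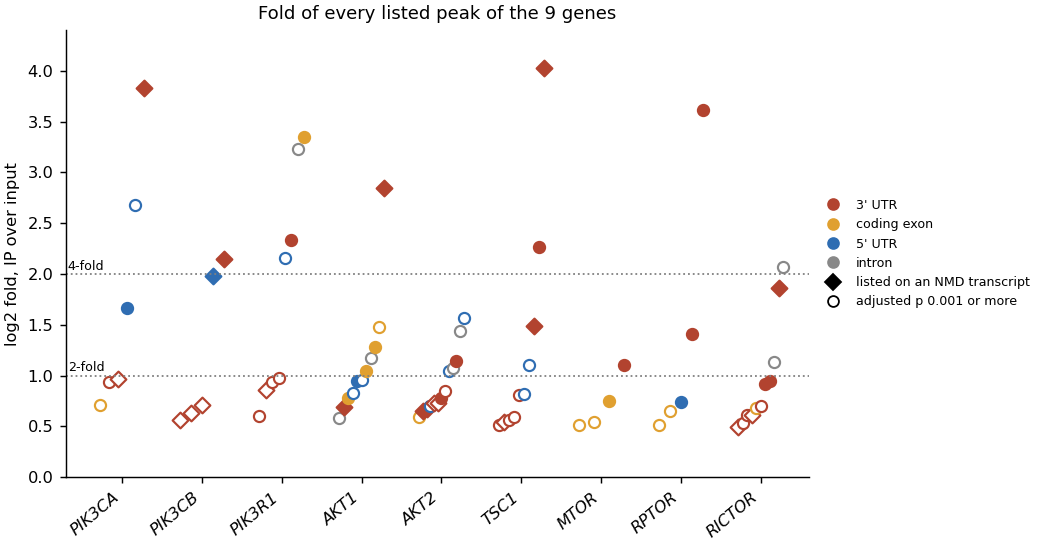
log2 fold of IP over input (y axis) of each of the 73 listed peaks, grouped by gene and ordered by fold within a gene. Colour gives the region listed for the peak, diamonds are peaks listed on nonsense-mediated decay (NMD) transcripts, open symbols have an adjusted p of 0.001 or more, and dotted lines mark 2-fold and 4-fold. AKT2 and MTOR have no peak at the 4-fold line, and TSC1 reaches 4.02.

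In the catalytic subunits of PI3K the strongest peaks lay close to the 3' end. The peak of PIK3CA on chromosome 3 from 179233333 to 179235254 had a 14.2-fold enrichment (log2 3.83, adjusted p 3.22e-117), 4839 nt from the gene's 3' end. It ranked 1193 of 49746 by fold. At the other end of PIK3CA, a peak from 179148164 to 179149072 in the 5' UTR had a log2 fold of 2.68 with an adjusted p of only 0.00110. A further 5' UTR peak from 179198575 to 179199759 had 1.67 (adjusted p 6.18e-13), and the other 3 peaks had 0.71 to 0.96. PIK3CB, the catalytic subunit p110 beta, had a 4.44-fold peak from 138654748 to 138655522 (log2 2.15, adjusted p 9.06e-39), 2050 nt from its 3' end. Both catalytic subunits therefore had a strong peak towards the 3' end and a second one at the 5' end, where PIK3CB had 1.98 (adjusted p 1.51e-06). That 5' peak runs over 64509 nt and so crosses introns, and the other 3 peaks of PIK3CB had 0.56 to 0.71.

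PIK3R1, which encodes the regulatory subunit p85 alpha, differed from the catalytic subunits in where its strongest peak lay. This peak, on chromosome 5 from 68217618 to 68273598, was listed in a coding exon with a 10.2-fold enrichment (log2 3.35, adjusted p 5.71e-91) and starts 1862 nt from the 5' end of the gene. It spans 55981 nt with introns between, so its site inside that stretch is not known. A second well-supported peak lay in the 3' UTR from 68296221 to 68298740, with a log2 fold of 2.33 (adjusted p 2.93e-97). Peaks in an intron (3.23, adjusted p 0.00419) and in a 5' UTR (2.15, adjusted p 0.00970) were strong in fold but weaker in support. The remaining 4 peaks of PIK3R1, all listed in a 3' UTR, had 0.61 to 0.97.

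The kinases AKT1 and AKT2 both carried many peaks, mostly of low fold. The strongest peak of AKT1 lay on chromosome 14 from 104771149 to 104771848, with a 7.17-fold enrichment (log2 2.84, adjusted p 4.00e-08), 1800 nt from the 3' end. The other 10 AKT1 peaks had log2 folds of 0.58 to 1.48 and lay in coding exons, introns, 5' UTRs and the 3' UTR. In AKT2, which carries much of the insulin signal in mouse liver, the strongest peak lay in the 5' UTR on chromosome 19 from 40284876 to 40285357 (log2 1.56, adjusted p 0.00770). The best-supported AKT2 peak lay in the 3' UTR from 40232567 to 40233616, with a 2.21-fold enrichment (log2 1.15, adjusted p 3.49e-57). It is the one AKT2 peak that passed both 2-fold and an adjusted p of 0.001, whereas 3 AKT1 peaks did. The approximate intervals of the strongest peaks of AKT1 and AKT2 overlapped.

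TSC1, the scaffold of the complex that restrains mTOR complex 1, held the highest fold of the 9 genes. Its peak on chromosome 9 from 132895723 to 132897226 had a 16.3-fold enrichment (adjusted p 2.17e-253), 4375 nt from the 3' end, and ranked 924 by fold and 624 by adjusted p among all 49746 peaks. A second peak from 132891348 to 132893147, which ends at the 3' end of the gene, had a log2 fold of 2.26 (adjusted p 1.67e-99). Between them 4 small peaks of 125 to 375 nt had log2 folds of 0.52 to 0.81. The 3' portion of TSC1 was thus marked at both sides of a stretch of weak peaks. A further well-supported peak from 132903740 to 132906108 had 1.49 (adjusted p 1.49e-22).

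MTOR and its partner proteins ranged from the weakest to among the strongest. MTOR, the kinase itself, had a 2.15-fold 3' UTR peak on chromosome 1 between 11106660 and 11107459 (log2 1.10, adjusted p 3.44e-14), 125 nt from its 3' end, and 3 coding exon peaks of 0.52 to 0.75. RPTOR, the scaffold of complex 1, had a 12.3-fold peak at the end of its 3' UTR on chromosome 17 from 80965320 to 80966344 (log2 3.62, adjusted p 1.12e-72). The peak next to it, from 80964370 to 80965294, had 1.40 (adjusted p 1.82e-15). RICTOR, the scaffold of complex 2, had its highest fold in an intron on chromosome 5 from 38970995 to 38971294 (log2 2.07), with an adjusted p of 0.00647. Its best-supported peak, from 38949405 to 38950663, had 1.86 (adjusted p 4.71e-54), and 5 peaks nearer the 3' end had 0.53 to 0.94. With peaks of adjusted p under 0.001 alone RICTOR had no 4-fold peak, and 6 of 9 genes kept one. The share of coding genes with this limit is not given here. The 40.7% of coding genes with a 4-fold peak has no limit on adjusted p, so it is no match for the 6 of 9.

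Peaks on the opposite strand overlapped 5 of the 73 peaks, in PIK3CB, AKT1, TSC1, MTOR and RPTOR. The strongest RPTOR peak shares 106 nt with a peak of AC127496 on the other strand (log2 2.70, adjusted p 0.00108), and without it the strongest RPTOR peak is the one at 1.40. The AKT1 peak from 104769699 to 104770398 (0.69) shares 338 nt with a peak of AL583722 (0.70). The MTOR peak from 11144840 to 11157253 (0.75) shares 370 nt with one of MTOR-AS1 (1.19), the antisense gene of MTOR. The 5' peak of TSC1 (1.10) overlaps one of GFI1B (1.16), and that of PIK3CB one of the pseudogene EEF1A1P25 (1.19). Whether the counting used strand is not given by the sources used here. The gene these 5 peaks belong to is therefore uncertain. The same doubt holds for peaks inside the span of a gene on the other strand. OSMR (6.23 FPKM) spans the RICTOR peaks between 38938595 and 38942294. KCNMB3 (1.07 FPKM) spans the PIK3CA peak from 179236780 to 179237279.

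By position, the best-supported peak of all 9 genes lay in the last 10% of the genomic span, measured to the middle of the peak. This stands beside 40.7% of coding genes with a peak and 48.7% of those with a span between the shortest and the longest of the 9. The limit of 10% was chosen after values were seen, so these counts describe the 9 genes and test nothing. The best-supported peaks of TSC1 (90.8% of the span), RICTOR (91.1%) and AKT1 (91.9%) lay close to it. By fold, the strongest peak lay there in 6 of 9, all but PIK3R1, AKT2 and RICTOR, beside 37.7% and 45.6%. Of all 73 peaks 31 (42.5%) lay in the last 10% and 7 (9.59%) in the first 10%, beside 35.5% and 8.21% of the peaks of coding genes that lie inside their gene. The span includes introns, so these places are not places along the mature mRNA.

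**Figure D3:**
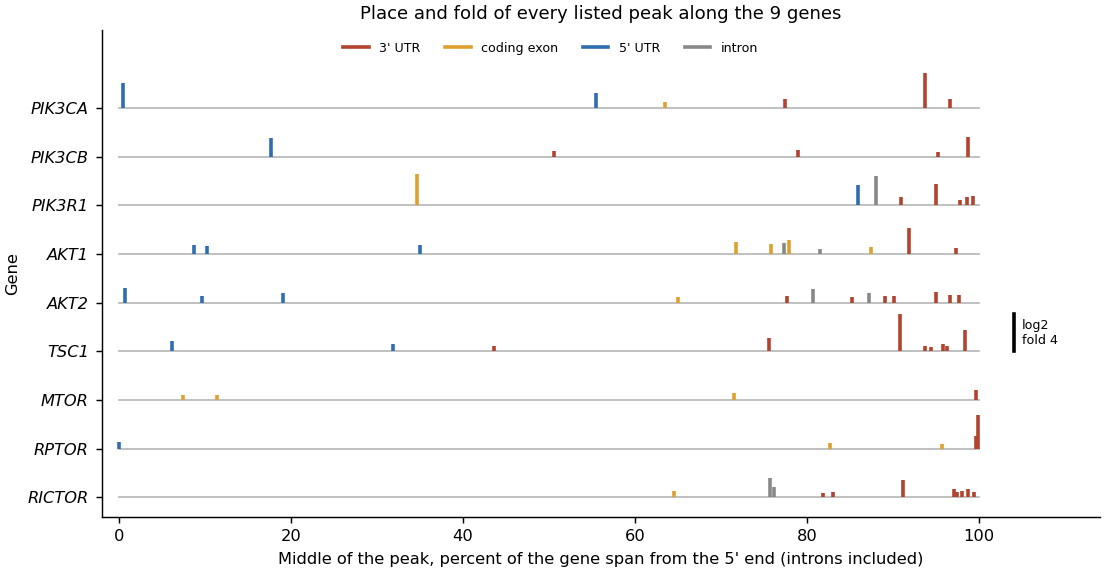
Place of each of the 73 peaks along its gene (x axis, middle of the peak as percent of the genomic span from the 5' end, introns included), with line height giving the log2 fold and colour the listed region. The best-supported peaks stand in the last 10%, a limit chosen after values were seen, in all 9 genes. The tall coding exon line of PIK3R1 at 34.7% is the middle of a peak that crosses introns.

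By listed region, 40 of the 73 peaks (54.8%, exact binomial 95% interval 42.7 to 66.5%) were in a 3' UTR. Coding exons held 13 (17.8%), 5' UTRs 13 (17.8%) and introns 7 (9.59%). Over peaks of coding genes at 1 FPKM or more these 3 shares were 23.4%, 14.1% and 6.90%. The 3' UTR share over peaks of coding genes at 1 FPKM or more was 55.5%, and over all listed peaks 49.2%, both inside that interval. The interval covers counting error only, and peaks of 1 gene are not independent. Of the 40, 19 (47.5%, interval 31.5 to 63.9%) were listed on nonsense-mediated decay (NMD) transcripts, beside 25.1% for coding genes at 1 FPKM or more. NMD transcripts carry an early stop codon, so their 3' UTR can lie over coding exons of the main transcript. In PIK3CB all 4 peaks of this class were of that kind, and 1 of them, from 138742623 to 138742722, lies 89925 nt from the 3' end of the gene.

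The strongest peaks of PIK3CA, PIK3CB, AKT1 and TSC1 were all listed as 3' UTR on an NMD transcript. TSC1 and RICTOR also had 3' UTR peaks on protein-coding transcripts, 5 each, and all of these lay nearer to the 3' end than the NMD ones. Without peaks listed on NMD transcripts the 3' UTR share of the 9 genes was 39.6%, beside 48.8% for coding genes. The listed 3' UTR place of these peaks therefore depends on which transcript the authors' annotation chose.

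Strong peaks also occurred in other genes of the pathway. The list held 65 other genes in 9 role groups, of which 64 had an input level, 57 reached 1 FPKM and 56 of these had a peak. A 2-fold peak with an adjusted p under 0.001 was listed for 43 of 57 (75.4%, beside 67.5% of coding genes), and a 4-fold peak for 22 (38.6%, beside 40.7%). Their median strongest log2 fold was 1.65, beside 2.84 for the 9 genes and 1.76 for coding genes, at a median level of 7.48 FPKM. The order was the other way for typical peaks: the median over all peaks was a log2 fold of 0.92 for the 9 genes and 1.03 for the other pathway genes, and the median of each gene's median peak was 0.78 and 1.08. The 9 genes had a median of 8 peaks and the other pathway genes of 4, and the part of peak number in the strongest folds was not tested. The lists were made with earlier results of these data known, so these counts describe them and test nothing.

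Upstream of AKT, all 3 receptor adaptors had a 4-fold peak, beside 40.7% of coding genes. The log2 fold was 3.14 in IRS1, the highest, and 2.41 in IRS2, the lowest, both substrates of the insulin receptor. Among other PI3K subunits 5 of 6 had a 2-fold peak with an adjusted p under 0.001, beside 67.5% of coding genes. The same share stands beside each group count of such peaks that follows, and no group was tested against it. PIK3C2B, a class II PI3K, was highest at 2.68, and PIK3R2, the regulatory subunit p85 beta, lowest at 1.15 at a level of 31.4 FPKM. All 3 lipid phosphatases had such a peak, from INPP4A at 2.91 to INPPL1 at 1.44, and so did all 3 kinases and phosphatases of AKT. There PHLPP2, which dephosphorylates AKT, had 4.48 with an adjusted p of 0.00324 and an overlapping peak on the other strand, and PHLPP1 had 1.82.

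The partners of TSC1 had lower strongest log2 folds than its 4.02. TBC1D7, another subunit of the complex, had 1.55 (adjusted p 0.00138), and RHEB, the GTPase the complex acts on, had 0.94. The 1 gene of this group of 3 with a 2-fold peak of adjusted p under 0.001 was TSC2, the GTPase-activating subunit, at 1.35, named after its value was seen. Of 7 mTOR complex partners 5 had one. The highest strongest log2 fold of the 7 was 3.29 in TELO2, which helps assemble mTOR complexes, in a peak that overlaps one on the other strand. The lowest was 0.98 in MAPKAP1, a subunit of complex 2, which is not among the 5. In the amino acid arm 12 of 16 had one. RRAGC, a Rag GTPase, had the highest log2 fold of the whole list, 7.31, but with an adjusted p of 0.000608 at 2.60 FPKM, and LAMTOR5, a subunit of the complex that anchors the Rag GTPases, had 0.87 in its 1 peak, which overlaps one on the other strand.

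Downstream, 8 of 12 targets had a 2-fold peak with an adjusted p under 0.001, near the 67.5% of coding genes. RPS6KB1, the ribosomal S6 kinase, had 3.80 (adjusted p 6.21e-138), whereas EIF4EBP1, a repressor of translation initiation, had 0.81. EIF4EBP2, a second repressor, had no listed peak at 51.5 FPKM, the one gene of the 57 without a peak. In the energy and stress arm 3 of 4 had such a peak. DDIT4, a stress-induced inhibitor of mTOR complex 1, had 3.01 in its 1 peak, which overlaps one on the other strand, and PRKAA1, a catalytic subunit of AMPK, had 1.26.

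**Figure D4:**
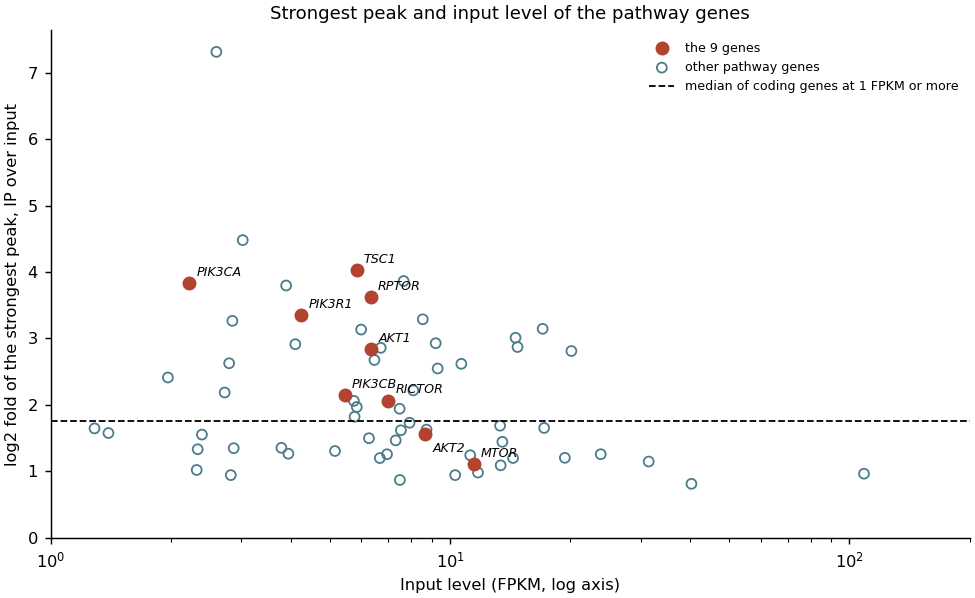
log2 fold of the strongest peak (y axis) against input level in FPKM (log x axis), 1 point per gene, for the 9 genes (filled) and the 56 other pathway genes at 1 FPKM or more with a peak (open). The dashed line is the median of coding genes at 1 FPKM or more (1.76): 7 of the 9 genes lie above it, and AKT2 and MTOR lie below.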

How the data were processed

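m6A immunoprecipitation was read in 1 IP and 1 input library of untreated Huh-7 cells. Per the submitters' processing notes, the tools were edgeR, StringTie, HOMER, HISAT2, FastQC and fastp, with no role stated. Genome build, peak settings and the scaling between libraries are not given by the sources used here. Both ends of 4 of the 9 gene spans equal those of RefSeq on GRCh38.p14 and all 9 overlap, so the build was taken as GRCh38.

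Per the file headers, the deposited peak table holds for each peak a log2 fold change with raw and adjusted p-values. The headers do not name the contrast. The fold change was read as IP over input because the series holds 1 IP and 1 input library. The authors' gene table gives the input FPKM. The largest p was 0.0500, so peaks were limited on the unadjusted p, and 2462 of 49746 (4 of the 73 here) have an adjusted p of 0.05 or more. A peak start was 1 below the listed gene start in 3007 cases and equal to it in 0, whereas ends equalled the gene end in 1791. Starts were therefore read as counted from 0 and are printed here plus 1.

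The 9 genes and the other lists were chosen with earlier results of these data known. Peaks were joined by gene name. Coding genes follow the RefSeq biotype, which matched 77.8% of genes. The planned comparisons have no test, as there is 1 library of each kind, and scripts were tested on simulated peaks. Named in the text are all 9 genes, and in each role group of other pathway genes the highest and lowest strongest peak and any gene without a peak, at 1 FPKM or more. GGAC, the joining of peaks, the last 10% of the span and the range of level were chosen after values were seen. Python 3.11.15, pandas 2.3.3 and SciPy 1.17.1 were used.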

Additional observations from a re-analysis of the deposited data

How the results depend on the processing

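Of 54 recomputed values 44 stayed within their margins, and the causes of the 10 shifts below were not tested. Part of the 44 could not move, so their number is no measure of stability. Filters on adjusted p or on 2-fold leave the count of genes with a 2-fold peak of adjusted p under 0.001 unchanged by definition. Leaving out peaks outside the span of their gene and joining by Ensembl gene ID each kept all 73 peaks. The peak counts and calls per gene had already been joined by that ID. The count of genes with a peak, with a 2-fold peak of adjusted p under 0.001 and with a 4-fold peak stayed within 1.5 times of the reported 9, 9 and 7 under all alternatives tried, with lowest values of 8, 7 and 5 without peaks on NMD transcripts. Under these peak filters a value for coding genes is given only for the 3' UTR share without NMD transcripts (48.8%). The 96.2%, 67.5% and 40.7% of coding genes and their median of 1.76 are for all listed peaks, so they do not match the filtered values. With an adjusted p under 0.001 the 9 genes had 27 peaks, 66.7% in the 3' UTR, and with 2-fold or more 29 peaks, 41.4% in the 3' UTR. Without NMD transcripts that share was 39.6% and the median strongest log2 fold 2.16. That median was 2.15 without peaks that overlap the other strand and 0.78 when a gene was represented by its median rather than its strongest peak, below the 1.06 of coding genes. The median level of the 7 genes at 5 FPKM or more was 6.36 FPKM, close to the 6.33 of all 9. What shifted was its side: it lay below the 10.4 FPKM of coding genes at that level. The 6.33 lay above the 5.58 FPKM of coding genes at 1 FPKM or more. With 4-fold in place of 2-fold, 22 of the other pathway genes were called. Leaving out peaks on NMD transcripts, joining peaks and reading starts as counted from 1 were added after the data were seen. No paired analysis was possible because there is 1 library of each kind. The depth is unknown, so a gene without a peak is not shown to lack the mark.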

Other observations

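Several RNAs share the ground of these genes. MIR641, a microRNA gene inside the span of AKT2 on the same strand, was listed at 6.55 FPKM without a peak, beside 8.67 FPKM for AKT2. AC118344, also on the strand of AKT2, stood at 2.11 FPKM without a peak of its own. It lies within the AKT2 5' UTR peak from 40270655 to 40279366 (log2 fold 1.05). Which gene that peak belongs to was not tested. OSMR, which runs on the opposite strand over the 3' end of RICTOR, stood at 6.23 FPKM, beside 7.01 FPKM for RICTOR, and none of its 4 peaks overlapped a RICTOR peak. GFI1B, whose listed span begins within the 5' region of TSC1 on the other strand, had a peak there at a level of only 0.00342 FPKM.

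Of all 49746 peaks, 57.9% had an end minus start that is a multiple of 25, and the deposited length is 1 more than that difference in every row. Over the whole list 25.5% of the 3' UTR peaks were listed on NMD transcripts.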
